A study of Arabidopsis thaliana with 8 samples.

Results

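The NHX genes of Arabidopsis thaliana, NHX1 to NHX8, encode the sodium/proton exchangers of its vacuolar, endosomal and plasma membranes, and their transcript levels were followed in imbibed seeds of the wild type Col-0 and of the line serk1-1. The members were chosen by locus, 8 of the 33279 genes of the table, and include SOS1, which is also called NHX7. RNA was taken from seeds imbibed for 24 h either in plain liquid MS medium (control) or in the same medium plus 200 mM NaCl. The 4 groups were control Col-0, NaCl-treated Col-0, control serk1-1 and NaCl-treated serk1-1, each with 2 libraries named as biological replicates. Both genotypes carry the label of the Columbia-0 ecotype. The line serk1-1 is named after the gene SERK1, whose product is a leucine-rich repeat receptor kinase of the SERK family. The nature of the serk1-1 allele is not given in the sources used here. The title of the study asks how components of the SOS pathway, which exports sodium, act in seed germination and seedling growth in saline conditions.

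NHX exchangers move sodium or potassium across a membrane in return for protons, and so depend on the proton gradient that membrane pumps build. The vacuolar members NHX1, NHX2, NHX3 and NHX4 load potassium or sodium into the vacuole and set its pH, with NHX1 and NHX2 the best studied in leaves. NHX5 and NHX6 sit in the Golgi, the trans-Golgi network and prevacuolar compartments, where they act redundantly in pH control and in the delivery of storage proteins to seed vacuoles. SOS1 is the plasma membrane antiporter that exports sodium and is activated by the kinase SOS2 with the calcium sensor SOS3, and NHX8 is its close homologue, described as a lithium exporter.

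Expression is given as FPKM, the fragments of a gene per length of transcript and per mapped fragments of its library, so levels can be set beside each other between genes. FPKM hold no read counts, and the sequencing depth is therefore unknown. Library totals ran from 777936 to 821247 FPKM in Col-0 and from 885375 to 901215 FPKM in serk1-1. SERK1 itself was at 2.70 and 1.59 FPKM in control Col-0, 2.40 and 1.06 in NaCl-treated Col-0, 1.53 and 1.40 in control serk1-1 and 1.12 and 1.05 in NaCl-treated serk1-1. The genotypes overlapped for SERK1, so its level over the whole gene did not separate the libraries by their labels. The imbibed seed markers, 6 storage protein, LEA and oleosin genes, were present in all 8 libraries, with summed levels of 4702 to 16017 FPKM in Col-0 and 27805 to 58937 FPKM in serk1-1. The transcript of each gene comes from whole seeds, so fewer cells of a type and less RNA per cell cannot be told apart.

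The 8 genes fall into 3 classes by protein sequence as well as by membrane. In the reference annotation of TAIR10.1, NHX1 and NHX2 shared 88.7% of their aligned residues, NHX5 and NHX6 81.1% and SOS1 and NHX8 75.0%. NHX3 stood apart among the vacuolar members, at 59.4% to NHX1, while NHX4 reached 70.8% to NHX1. SOS1 is the longest protein, at 1146 residues, followed by NHX8 at 756, and the other 6 have between 521 and 552. No run of 50 bases in a transcript of any member occurred in another member, so reads of that length or longer could be told apart between the members, NHX1 and NHX2 included.

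**Figure D1:**
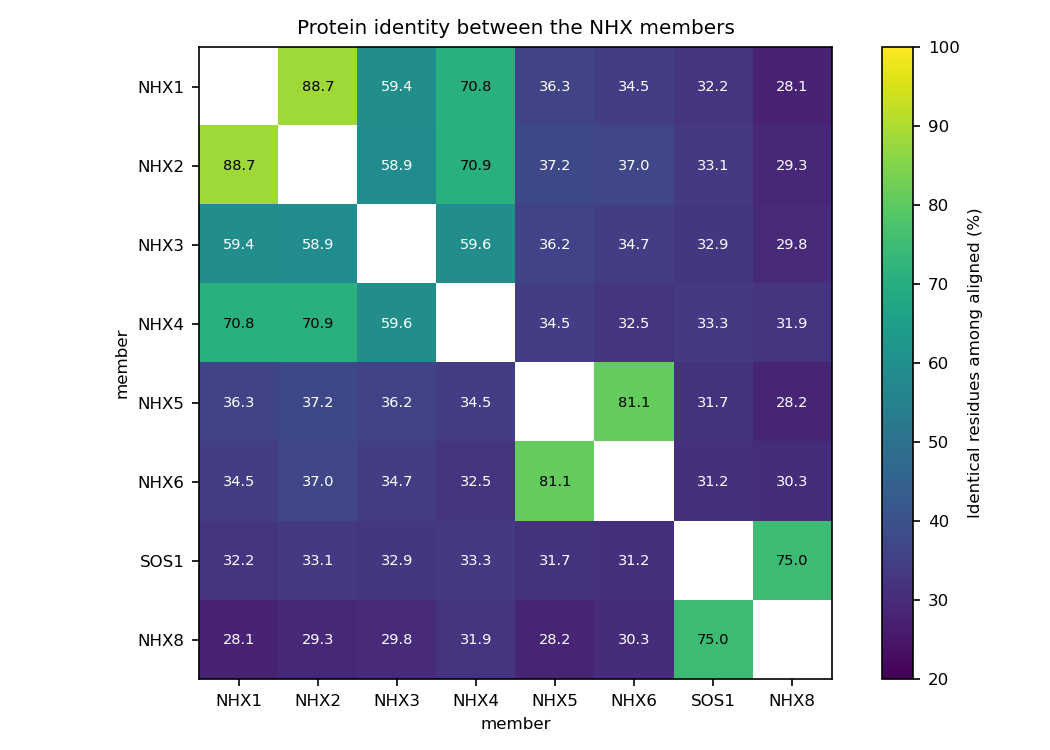
Identity between the annotated proteins of the 8 NHX members, as the percentage of identical residues among aligned residues for each pair (both axes list the members, the colour marks the percentage). The 3 pairs NHX1 and NHX2 (88.7%), NHX5 and NHX6 (81.1%) and SOS1 and NHX8 (75.0%) stand out.

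The genes lie on 4 chromosomes. In TAIR10.1, NHX1 (AT5G27150) lies at chr5:9553300-9557594 on the plus strand with 14 exons, and NHX3 (AT5G55470) on the same chromosome at chr5:22469245-22472706 on the minus strand with 15 exons. NHX2 (AT3G05030) lies at chr3:1393142-1397627 and NHX4 (AT3G06370) at chr3:1929946-1934073, both on the minus strand. NHX5 (AT1G54370, chr1:20293151-20297236), NHX6 (AT1G79610, chr1:29952873-29957201) and NHX8 (AT1G14660, chr1:5031943-5036610) are all on the minus strand of chromosome 1. SOS1 (AT2G01980) lies at chr2:457002-463408 on the plus strand and has 23 exons. The annotated ends of some members overlap a gene on the opposite strand. NHX3 shares 60 bases with AT5G55460, NHX5 shares 174 bases with TAF6B, and NHX2, NHX5 and NHX8 each overlap a noncoding RNA of the opposite strand. The strand setting of the counting is not given in the sources used here, so fragments from these stretches cannot be assigned to one gene of a pair.

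The sequence before the annotated start differed among the members in a short element that is known from abscisic acid responsive promoters, with the core ACGTG. Over 250 bases, and counting both strands, NHX3 held 3 matches to ACGTG, of which 2 were the overlapping strands of 1 palindrome, CACGTG. SOS1 held 2 matches, again the overlapping strands of 1 CACGTG palindrome, and the other 6 members held none. Of all 26692 promoters of the same length, 23.1% held ACGTG. A second seed element, CATGCA, was found in none of the 8 and in 8.5% of all promoters. For neither element does the count set the 8 members apart from the share of all promoters. The 3 members whose transcripts differed between the genotypes in the test below, NHX3, NHX6 and NHX8, are shown with SOS1, the only other member with a match. The sequences are given 5' to 3' on the strand of the gene, from RefSeq TAIR10.1, at chr5:22472707-22472956 (NHX3, minus strand), chr1:29957202-29957451 (NHX6, minus strand), chr1:5036611-5036860 (NHX8, minus strand) and chr2:456752-457001 (SOS1, plus strand), with matches to ACGTG on either strand in capitals.
NHX3: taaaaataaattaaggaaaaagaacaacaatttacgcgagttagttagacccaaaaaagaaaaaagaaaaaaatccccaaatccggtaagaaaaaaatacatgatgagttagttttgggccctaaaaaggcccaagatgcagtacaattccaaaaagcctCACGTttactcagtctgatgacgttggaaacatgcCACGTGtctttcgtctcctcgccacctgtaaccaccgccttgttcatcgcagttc
NHX6: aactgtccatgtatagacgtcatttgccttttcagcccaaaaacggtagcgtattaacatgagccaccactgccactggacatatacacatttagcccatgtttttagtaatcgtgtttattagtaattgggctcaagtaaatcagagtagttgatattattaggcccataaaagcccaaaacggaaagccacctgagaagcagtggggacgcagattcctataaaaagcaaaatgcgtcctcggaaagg
NHX8: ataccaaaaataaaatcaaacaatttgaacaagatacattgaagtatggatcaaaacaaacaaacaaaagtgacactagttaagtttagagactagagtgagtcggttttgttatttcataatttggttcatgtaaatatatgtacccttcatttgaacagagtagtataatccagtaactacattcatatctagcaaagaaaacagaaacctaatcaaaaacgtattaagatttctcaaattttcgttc
SOS1: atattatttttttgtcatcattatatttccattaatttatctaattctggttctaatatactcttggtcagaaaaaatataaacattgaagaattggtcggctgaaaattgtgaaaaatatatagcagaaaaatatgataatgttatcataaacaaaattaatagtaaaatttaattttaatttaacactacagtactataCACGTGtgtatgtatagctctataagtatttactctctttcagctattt

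Of the 8 members, 7 were transcribed at a level that entered the test, with 1 FPKM or more in at least 2 libraries. NHX4 did not, since it was listed between 0 and 0.10 FPKM in Col-0 and between 0 and 0.02 FPKM in serk1-1, and 3 of its 8 values were 0. Averaged over all libraries, NHX3 was the most abundant at 32.6 FPKM, above 81.3% of the 22226 genes with a value. NHX5 (16.1 FPKM, above 70.3% of genes), NHX6 (14.9, 69.0%) and NHX1 (9.45, 61.7%) came next. SOS1 followed at 6.76 FPKM (56.2%), NHX2 at 5.35 (52.9%) and NHX8 at 4.32 (49.8%). All 7 were therefore near or above the middle of the seed transcriptome, whereas NHX4 was above 13.4% of genes.

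The order of the members differed between the genotypes. In Col-0 the mean over 4 libraries ran from NHX6 (20.4 FPKM) through NHX3 (15.9), NHX5 (13.3), NHX1 (10.8), SOS1 (8.20) and NHX2 (6.72) to NHX8 (3.13). Among the first 6 of these, the ranges of every pair of neighbours overlapped over the libraries. Within each Col-0 library NHX3 was above NHX5, whereas the other neighbouring pairs of the 6 changed places between libraries. Every NHX6 and NHX3 value (14.39 FPKM or more) lay above every SOS1 and NHX2 value (9.98 FPKM or less). NHX8 lay below all 6 in every Col-0 library. In serk1-1 the order was NHX3 (49.4 FPKM), NHX5 (18.9), NHX6 (9.43), NHX1 (8.06), NHX8 (5.51), SOS1 (5.32) and NHX2 (3.99). There NHX3 was above every value of NHX5 and NHX5 above every value of NHX6, whereas the ranges of NHX6 and NHX1, NHX8 and SOS1, and SOS1 and NHX2 overlapped. Within each serk1-1 library NHX6 was above NHX1 and SOS1 above NHX2, while NHX8 and SOS1 changed places between libraries.

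**Figure D2:**
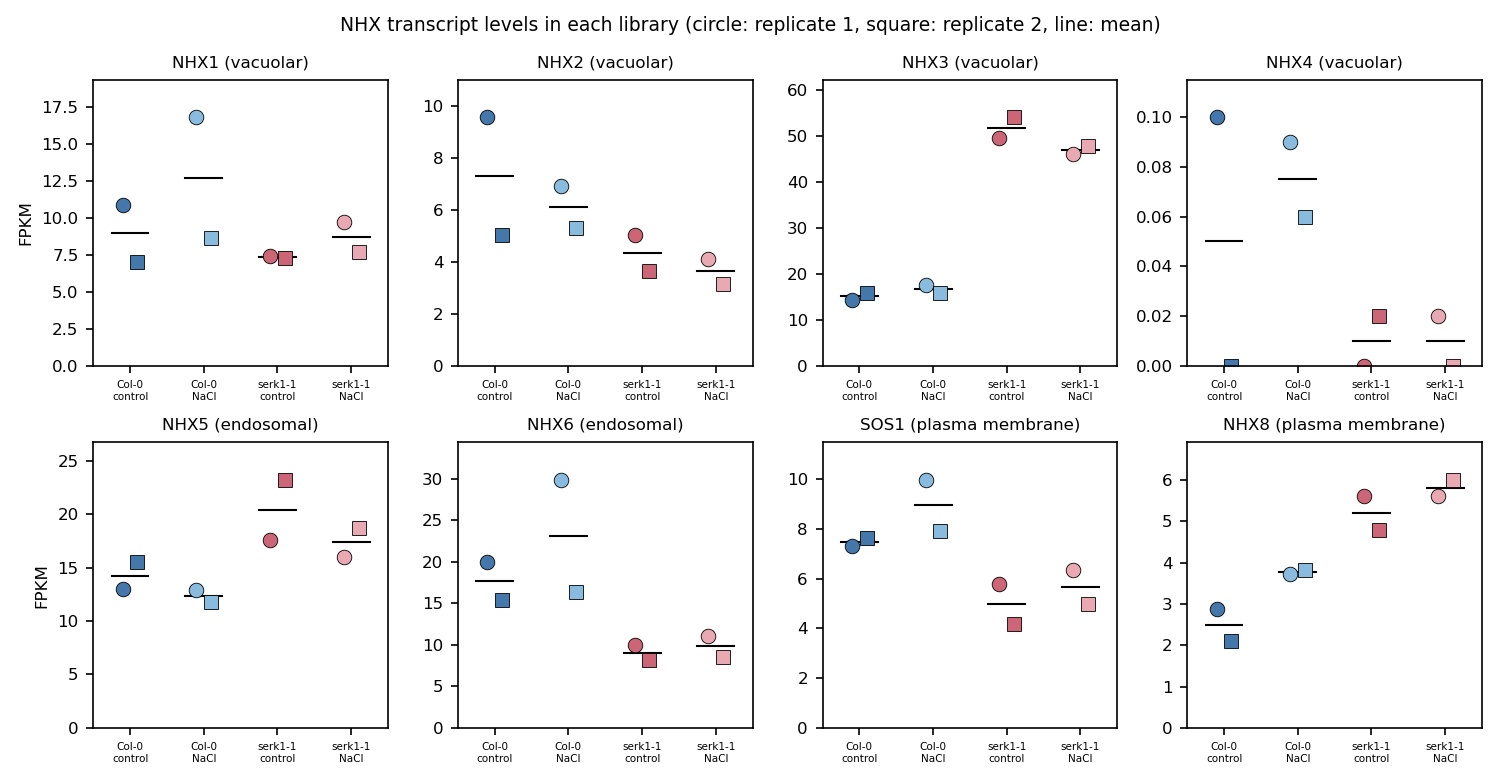
FPKM of each NHX member (1 panel each, own linear axis from 0) in the 8 libraries, with circles for replicate 1, squares for replicate 2 and a line at the mean of each group of 2. NHX3, NHX5 and NHX8 were higher in all 4 serk1-1 libraries than in all 4 Col-0 libraries, NHX2, NHX6 and SOS1 were lower, and NHX1 overlapped.

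Members of the family differed between the genotypes in both directions. With the 4 libraries of each genotype set side by side, 6 of the 7 tested members did not overlap, with NHX3, NHX5 and NHX8 higher in serk1-1 and NHX2, NHX6 and SOS1 lower. Among all 15336 genes tested, 12.3% were higher without overlap and 20.4% lower. In limma's fit across all genes, averaged over the media, 2 members were called higher (NHX3 and NHX8) and 1 lower (NHX6) at a Benjamini-Hochberg adjusted p under 0.05, against a background of 11.9% of genes called higher and 18.9% lower. With 1 or 2 of 7 genes in each direction, these counts cannot be set apart from such a background, and the single members are described by their size. Differences are given, with the standard error, as log2 of FPKM + 1 in serk1-1 minus that in Col-0. The added 1 understates the change of low genes. The median of all genes was itself -0.19 on this scale. Median-of-ratios scaling of the libraries moved that median to 0.00 and the split of all calls from 1825 higher and 2897 lower to 2563 higher and 2273 lower. The averaged differences of NHX3, NHX5, NHX6, NHX8 and SOS1 are therefore also given relative to the median. Those of NHX1, NHX2, the listed pathway genes and the markers are given as fitted and include the shift of -0.19. Genotype differences in a single medium are also as fitted, where the median of all genes was -0.14 without NaCl and -0.24 with NaCl.

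NHX3 rose in serk1-1, with the largest difference of the 7 tested members. Its levels were 14.39 and 15.71 FPKM in control Col-0 and 17.54 and 15.85 in NaCl-treated Col-0, against 49.54 and 54.04 in control serk1-1 and 46.05 and 47.78 in NaCl-treated serk1-1. Every serk1-1 library was thus far above every Col-0 library, and the spread within a genotype was small. The mean was 3.11-fold higher in serk1-1, and the log2 difference averaged over media was 1.58 ± 0.12 (limma, 95% interval 1.30 to 1.86, adjusted p = 8.52e-04), or 1.77 relative to the median of all genes. NHX3 ranked 615 by the size and 34 by the p-value of its difference among the 15336 genes. The difference was 1.72 ± 0.17 without NaCl (3.44-fold, adjusted p = 0.00480) and 1.44 ± 0.17 with NaCl (2.81-fold, adjusted p = 0.0138). In each medium taken alone, NHX3 was the only member called, 1 of 7, where 6.00% of all genes were called higher and 5.07% lower without NaCl, and 2.13% higher and 4.14% lower with NaCl. The call with NaCl was lost when only the groups compared were fitted (adjusted p = 0.0534), without replicate 1 of NaCl-treated Col-0 (0.0654) and without replicate 1 (0.0614) or 2 (0.132) of NaCl-treated serk1-1, and that without NaCl was lost without replicate 2 of control serk1-1 (0.0653). Calls over all genes also nearly vanished there, from 962 with NaCl to 107 with only the groups compared and to 13, 15 and 2 without those libraries in turn, and from 1697 without NaCl to 13.

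Imbibed seed and endosperm markers had positive differences between the genotypes, as NHX3 had, while the tested seed coat marker MUM4 had a negative one. All 6 imbibed seed markers were called higher in serk1-1, averaged over media. Of the 3 endosperm markers, EPR1, an extensin-like gene of the endosperm, was higher by 3.01 ± 0.17 and MFT, a phosphatidylethanolamine-binding protein gene that acts in dormancy, by 1.59 ± 0.29, while ABCG31 did not pass (limma, adjusted p = 6.67e-04, 0.00752 and 0.145). Their summed level ran from 199 to 342 FPKM in Col-0 and from 1438 to 2170 FPKM in serk1-1. Of the 4 seed coat markers, TT10 and BAN were at 0 in all 8 libraries, and MUM4 was lower by 0.87 ± 0.28 (limma adjusted p = 0.0485). MUM2, below the filter, went the other way, at 0.04 to 0.20 FPKM in Col-0 and 0.34 to 1.05 FPKM in serk1-1. The list summed to 1.79 to 4.71 FPKM in Col-0 and 1.69 to 2.12 FPKM in serk1-1. AT5G55460, the gene that shares 60 bases with NHX3 on the other strand, was at 1.88 to 5.15 FPKM in Col-0 and 5.39 to 10.9 FPKM in serk1-1, below NHX3 in every library. The part of these changes in the results of NHX3 and the other members was not tested.

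Of NHX1, NHX2 and NHX4, the other vacuolar members, none was called. NHX2 was at 9.57 and 5.04 FPKM in control Col-0, 6.94 and 5.32 in NaCl-treated Col-0, 5.03 and 3.65 in control serk1-1 and 4.11 and 3.15 in NaCl-treated serk1-1. All serk1-1 values lay under all Col-0 values, although the nearest values, 5.03 and 5.04 FPKM, almost met. The mean was 1.69-fold lower, and the difference of -0.61 ± 0.24 did not pass (limma adjusted p = 0.0884). NHX1, the member most like NHX2 in sequence, was at 10.89 and 7.03 FPKM in control Col-0, 16.83 and 8.62 in NaCl-treated Col-0, 7.45 and 7.29 in control serk1-1 and 9.76 and 7.73 in NaCl-treated serk1-1. The genotypes overlapped, and its difference was -0.33 ± 0.24 (limma adjusted p = 0.330, 95% interval -0.90 to 0.24). NHX4 was at 0.10, 0, 0.09 and 0.06 FPKM in the Col-0 libraries and at 0, 0.02, 0.02 and 0 in the serk1-1 libraries, too low for a fold or a test.

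In the endosomal pair, NHX6 was called lower and NHX5, which shares 81.1% of its residues, had a positive difference that did not pass. NHX6 fell in serk1-1, from 19.94 and 15.40 FPKM in control Col-0 and 29.89 and 16.38 in NaCl-treated Col-0 to 9.92 and 8.15 in control and 11.05 and 8.58 in NaCl-treated serk1-1. No serk1-1 value reached a Col-0 value, and replicate 1 of NaCl-treated Col-0 was the highest of the 8. The mean was 2.17-fold lower, and the difference averaged over media was -1.0 ± 0.22 (limma adjusted p = 0.0153, 95% interval -1.52 to -0.48), or -0.81 relative to the median of all genes. The call was lost without replicate 1 of control Col-0 (adjusted p = 0.0542) and without replicate 2 of serk1-1 in control (0.0606) or NaCl medium (0.0636). In a single medium NHX6 did not pass, at -0.89 ± 0.31 without NaCl (adjusted p = 0.105) and -1.11 ± 0.31 with NaCl (0.0755). NHX5 was at 12.99 and 15.51 FPKM in control Col-0, 12.89 and 11.76 in NaCl-treated Col-0, 17.62 and 23.25 in control serk1-1 and 15.99 and 18.73 in NaCl-treated serk1-1. The genotypes did not overlap, and serk1-1 was 1.42-fold higher in the mean. The difference of 0.47 ± 0.16 (0.66 relative to the median of all genes) did not pass (limma adjusted p = 0.0551). TAF6B, which overlaps NHX5 on the other strand, was at 15.8 to 18.7 FPKM in Col-0 and at 19.1 to 26.3 FPKM in serk1-1, and its part in the NHX5 values was not tested.

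In the plasma membrane pair, NHX8 was called higher and SOS1 had a negative difference that did not pass. NHX8 rose in serk1-1, from 2.87 and 2.11 FPKM in control Col-0 and 3.72 and 3.81 in NaCl-treated Col-0 to 5.62 and 4.80 in control and 5.62 and 6.01 in NaCl-treated serk1-1. All 4 serk1-1 values were above the Col-0 values, by a mean of 1.76-fold. The difference averaged over media was 0.68 ± 0.17 (limma adjusted p = 0.0233, 95% interval 0.28 to 1.08), or 0.87 relative to the median of all genes. It did not pass in a single medium, at 0.84 ± 0.24 without NaCl (adjusted p = 0.0642) and 0.52 ± 0.24 with NaCl (0.210). The averaged call was lost when any of 5 libraries was left out, with adjusted p of 0.0706 without replicate 2 of control Col-0, 0.0729 and 0.0691 without replicate 1 or 2 of control serk1-1, and 0.0692 and 0.106 without replicate 1 or 2 of NaCl-treated serk1-1. SOS1 was at 7.29 and 7.63 FPKM in control Col-0, 9.98 and 7.91 in NaCl-treated Col-0, 5.78 and 4.17 in control serk1-1 and 6.36 and 4.98 in NaCl-treated serk1-1. Its genotypes did not overlap, and the mean was 1.54-fold lower in serk1-1. The difference of -0.55 ± 0.18 (-0.35 relative to the median of all genes) did not pass (limma adjusted p = 0.0553).

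**Figure D3:**
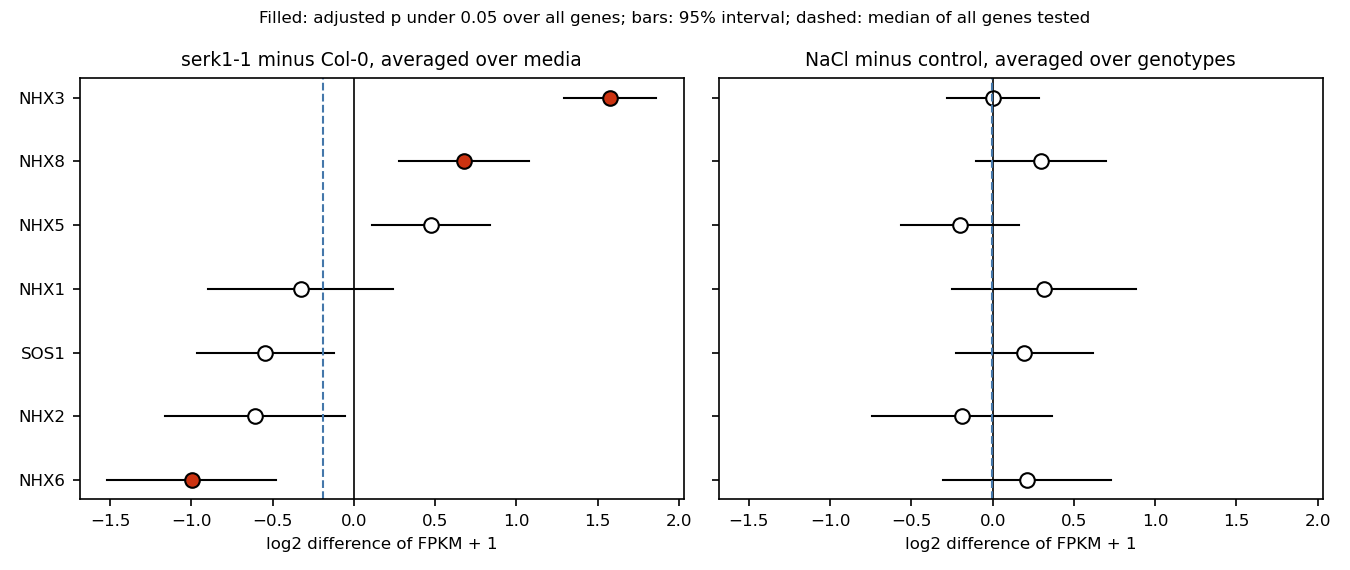
Differences in log2 of FPKM + 1 for the 7 tested NHX members between genotypes (left, serk1-1 minus Col-0, averaged over media) and between media (right, NaCl minus control, averaged over genotypes), with 95% intervals and a dashed line at the median of all genes tested. NHX3, NHX8 and NHX6 pass on the left (filled points), and no member passes on the right.

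The make-up of the family's transcripts followed these shifts. NHX3 held 17.9% to 23.0% of the summed FPKM of the 8 genes in Col-0 and 46.5% to 51.3% in serk1-1, and NHX6 held 22.5% to 30.5% and 7.73% to 11.2%. As classes, the vacuolar members held 40.6% to 44.8% in Col-0 and 60.5% to 61.7% in serk1-1. The endosomal members held 40.4% to 45.2% and 27.3% to 29.8%, and the plasma membrane members 13.0% to 16.8% and 8.51% to 12.1%. The sum of the 8 genes ran from 68.4 to 97.9 FPKM in Col-0 and from 97.0 to 105 FPKM in serk1-1, and without NHX3 from 52.7 to 80.3 and from 49.2 to 52.9 FPKM. Among the vacuolar members only NHX3 held a greater share in the serk1-1 libraries, as NHX1 and NHX2 each held less in all 4 than in any Col-0 library. These shares are a description, with no test of their own, and a share rises in part when another falls.

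Ratios within a library do not depend on its scaling and are not moved by the totals. NHX3 was 0.587 to 1.02 times NHX6 in the Col-0 libraries and 4.17 to 6.63 times NHX6 in the serk1-1 libraries. NHX5 was 0.431 to 1.01 times NHX6 in Col-0 and 1.45 to 2.85 times NHX6 in serk1-1. NHX8 was 0.277 to 0.482 times SOS1 in Col-0 and 0.884 to 1.21 times SOS1 in serk1-1, so the homologue that was the minor partner in Col-0 reached about the level of SOS1. The ratio of NHX1 to NHX2 overlapped, at 1.14 to 2.43 in Col-0 and 1.48 to 2.45 in serk1-1. Such ratios show unequal change and not which of the paired genes changed.

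**Figure D4:**
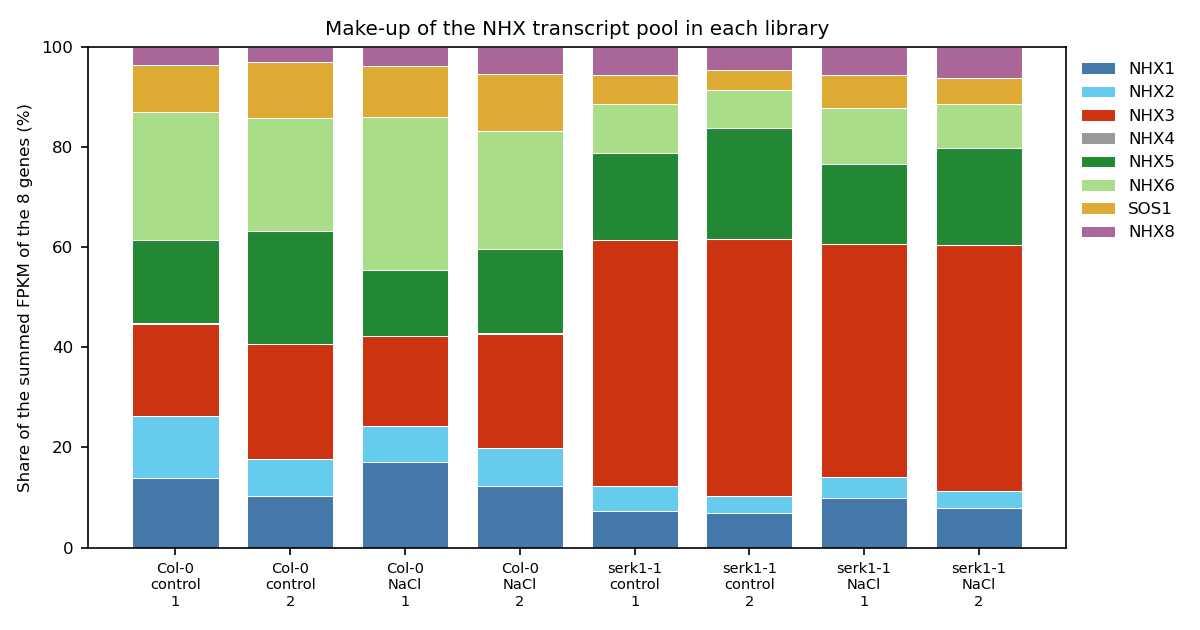
Share of each NHX member in the summed FPKM of the 8 genes (stacked bars on a linear axis from 0, 1 bar per library). NHX3 fills 17.9% to 23.0% of the bar in Col-0 and 46.5% to 51.3% in serk1-1, while NHX6 fills 22.5% to 30.5% and 7.73% to 11.2%.

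None of the 7 tested members passed for NaCl. Averaged over genotypes, 0 of 7 were called by limma, with 0.274% of all genes called. The log2 difference (NaCl minus control) was 0.32 ± 0.24 for NHX1, -0.19 ± 0.24 for NHX2, 0.00 ± 0.12 for NHX3, -0.20 ± 0.16 for NHX5, 0.21 ± 0.22 for NHX6, 0.20 ± 0.18 for SOS1 and 0.30 ± 0.17 for NHX8, with limma adjusted p from 0.476 to 0.999. The median over the 7 was 0.20, beside -0.01 over all genes. For SOS1 the 95% interval ran from -0.23 to 0.62, for NHX8 from -0.10 to 0.70 and for NHX1 from -0.25 to 0.89. For NHX3 the interval of -0.28 to 0.28 was the narrowest of the 7, and its difference changed sign to -0.02 when the library totals were made equal.

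By genotype, 0 of 7 members were called for NaCl in Col-0, where 0.0456% of all genes were called and 1740 had an unadjusted p under 0.05. In serk1-1, 0 of 7 were called where 0% of all genes were, with 661 at an unadjusted p under 0.05. NHX8 showed the clearest separation in Col-0, where both libraries with NaCl (3.72 and 3.81 FPKM) were above both without (2.87 and 2.11), by 1.51-fold. In serk1-1 its values overlapped at 1.12-fold. SOS1 was 1.20-fold higher with NaCl in Col-0, without overlap (9.98 and 7.91 against 7.29 and 7.63 FPKM), and overlapped in serk1-1 at 1.14-fold. NHX3 was 1.11-fold higher with NaCl in Col-0 and 1.10-fold lower in serk1-1, in neither case with overlap. Its nearest values were 15.85 with and 15.71 without NaCl in Col-0, and 47.78 and 49.54 FPKM in serk1-1. NHX5 was 1.16-fold lower with NaCl in Col-0, without overlap (12.89 and 11.76 against 12.99 and 15.51 FPKM), and overlapped in serk1-1. NHX1 was 1.42-fold higher in Col-0, where it overlapped, and 1.19-fold higher in serk1-1, where it did not. The share of all genes without overlap between 2 and 2 libraries was not computed. These separations of single members are therefore not shown to exceed that share.

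The salt effect of no member was shown to differ between the genotypes. In limma's test of the difference itself (salt effect in serk1-1 minus that in Col-0), 0 of 7 members were called, 0% of all genes were, and 165 genes had an unadjusted p under 0.05. For NHX3 the difference was -0.28 ± 0.24 and for NHX8 -0.32 ± 0.34, both with an adjusted p of 0.9999 and 95% intervals of -0.84 to 0.29 and -1.12 to 0.48. The difference was below 0 for all 7 members as deposited (median -0.21, beside -0.11 over all genes), whereas 3 of 7 were above 0 after median-of-ratios scaling and 2 of 7 with equal totals. With 2 libraries a group, the standard error of this difference was 0.24 to 0.49 for the members.

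Replicates of a group differed in some members. Replicate 2 was below replicate 1 in all 4 groups for NHX1, NHX2 and NHX6, and in 3 of 4 for SOS1. For NHX3 and NHX5 this held in 1 of 4 groups, and the log2 differences between replicates of NHX3 stayed between -0.14 and 0.12. The largest were -0.89 for NHX1 and -0.83 for NHX6, both in NaCl-treated Col-0, where replicate 1 held the highest value of each. The wide intervals of NHX1, NHX2 and NHX6 rest on these gaps.

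The genes whose log2 levels ran most like each member over the 8 libraries were taken from the 15335 other genes tested. For NHX3 these were AT3G57050, a cystathionine beta-lyase gene (Pearson r = 0.994), AT1G78480 (0.993) and AT4G10890 (0.992), and 271 genes reached 0.95. For NHX6 they were ATSIK, a kinase gene, EDA16 and AT4G38790 (each 0.996), and 682 genes reached 0.95. For SOS1 they were DEX1 (0.992), VPS24.1, a gene of endosomal sorting (0.990), and ARK3 (0.990). NHX8 ran with AT5G22690 (0.993), AT5G63620 (0.990) and AT2G38870 (0.989), and NHX5 with AT5G27400 (0.986), AT2G02840 (0.980) and UMAMIT38 (0.979). NHX1 ran with AT2G25650 (0.996), EIN2, a central gene of ethylene signalling (0.991), and SRO1 (0.990), and NHX2 with AT4G01210 (0.996), AT3G24480 (0.990) and CLF, a Polycomb methyltransferase gene (0.989). Among the members, NHX6 and SOS1 ran together (0.94), as did NHX3 and NHX8 (0.87), and NHX5 ran against SOS1 (-0.91). Some of the named genes were low. AT1G78480 was at 0.25 to 0.46 FPKM in Col-0 and 1.44 to 1.66 in serk1-1, and AT2G02840 at 0.52 to 1.00 and 1.32 to 2.79. AT3G24480 was at 0.63 to 1.93 FPKM in Col-0 and 0.14 to 0.59 in serk1-1. AT1G78480 thus reached 1 FPKM only in serk1-1, and AT3G24480 only in Col-0. All r given here rest on 8 libraries that share both the split between genotypes and gaps between replicates. The part of each in a given r was not tested, and no p is given. For NHX1 the genotypes overlapped, as they did for AT2G25650, at 9.06 to 33.9 FPKM in Col-0 and 9.81 to 15.4 FPKM in serk1-1.

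In the SOS pathway and its known partners, 7 of 10 genes were tested and, averaged over media, 0 were called higher and 1 lower in serk1-1, beside 11.9% and 18.9% of all genes, so the count sets the list apart from neither share. That gene was RCD1, whose protein binds SOS1, at 118 to 325 FPKM in Col-0 and 72.3 to 98.1 FPKM in serk1-1 (-1.22 ± 0.22, limma adjusted p = 0.00811). SOS2, the kinase that phosphorylates SOS1, was at 1.97 to 2.79 FPKM in Col-0 and 2.26 to 3.13 in serk1-1 (0.14 ± 0.18), and SOS3 at 4.34 to 10.06 and 3.20 to 6.34 (-0.30 ± 0.21), with adjusted p of 0.564 and 0.307. CBL10, the sensor that recruits SOS2 in shoots, did not exceed 0.20 FPKM, and the sodium transporter HKT1 was at 0 in all 8 libraries. Of the calcium sensors of the vacuolar membrane, CBL3 was higher in serk1-1, at 21.0 to 34.0 FPKM in Col-0 and 33.4 to 46.7 FPKM in serk1-1 (0.59 ± 0.16, adjusted p = 0.0265), and CBL2, its close paralogue, was not called. The CBL3 genotypes overlapped, and the call was lost under equal totals (0.0597) and with any of 5 libraries left out (0.0538 to 0.0988).

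Vacuolar-type proton pumps build the gradient that drives the exchangers of inner membranes. Of their 30 genes, 27 were tested, and 2 were called higher and 5 lower in serk1-1, averaged over media, no larger a share than the 11.9% and 18.9% of all genes. AT2G16510, a gene of the membrane subunit c, was lower (-1.25 ± 0.24, limma adjusted p = 0.00955), and VMA10, of subunit G, was higher (1.13 ± 0.16, 0.00348). VHA-A2, of an isoform of subunit a, was also higher, at 20.8 to 22.9 FPKM in Col-0 and 35.6 to 43.2 FPKM in serk1-1 (0.79 ± 0.12, limma adjusted p = 0.00431). VHA-A3, of another isoform of subunit a, went the other way, at 31.6 to 45.9 FPKM in Col-0 and 18.8 to 30.2 FPKM in serk1-1. Its difference was -0.81 ± 0.24 without NaCl and -0.68 ± 0.24 with NaCl. VP2, a pyrophosphatase of the Golgi, was lower (-0.77 ± 0.24, 0.0460), as was AVP1, the vacuolar pyrophosphatase, at 274 to 378 FPKM in Col-0 and 165 to 232 FPKM in serk1-1 (-0.70 ± 0.18, 0.0234). The AVP1 call was lost without any of 4 libraries (0.0601 to 0.0958). The VP2 call was lost with no filter on low values (0.0825), under quantile normalization (0.0668), without the trend (0.0577) and with any of 6 libraries left out (0.0706 to 0.142). Whether reads can be told apart between the genes of subunit c was not tested, so their FPKM are uncertain. Between the media, 0 genes of the SOS, calcium sensor and proton pump lists were called in either genotype or in their average. Of the tissue markers, ABCG31, an abscisic acid exporter gene of the endosperm, was called higher with NaCl averaged over genotypes (1.80 ± 0.17, limma adjusted p = 0.0185), at 0.58 to 1.36 FPKM in the control libraries and 4.95 to 6.49 FPKM in the NaCl-treated ones. Its part in the salt values of the NHX members was not tested.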

How the data were processed

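RNA of imbibed seeds was sequenced in paired-end runs on an Illumina HiSeq2500 after TruSeq library preparation, per the labels' protocols. The deposited values are FPKM per gene, which the authors made with Cufflinks 2.1.1 after FastQC 0.10.1 and TopHat2 against TAIR10, per the submitters' processing notes. Annotation, strand setting and treatment of multi-mapping reads: not given in the sources used here. Values in FPKM depend on everything else in a library, so a larger pool of storage transcripts would lower other genes, and they do not show depth. The genotype of each library was taken from the genotype label, since the titles of serk1-1 samples also hold the words wild type.

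Of 33279 genes, the 15336 that reached 1 FPKM in 2 or more libraries were fitted as log2(FPKM + 1), computed here from the deposited values, in R 4.3.3 with limma 3.58.1: 4 group means in 1 fit, empirical Bayes with trend, 4 residual degrees of freedom, two-sided, with Benjamini-Hochberg adjustment over all genes tested. The method was tested on simulated data with independent noise in each library. That test does not cover deviations that replicates share between groups. There were 7 comparisons: the salt effect in each genotype and averaged, the genotype effect in each medium and averaged, and the difference of the salt effects. Each p-value thus reflects the scatter among these particular libraries, which the labels call biological replicates and the fit takes as independent. Members and gene lists were chosen with earlier results of these data known. Named were all members, SOS2, SOS3, CBL10, HKT1 and AVP1, up to 4 called genes per pathway list and the 3 most alike genes per member. VHA-A3 was named beside VHA-A2. The lists were the SOS pathway and partners, the sodium transporter HKT1, calcium sensors of the vacuolar membrane, vacuolar and plasma membrane proton pumps, other cation/proton antiporters, and seed, endosperm and seed coat markers.

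Gene models, promoters (250 bases before the annotated start) and proteins were read from RefSeq TAIR10.1 with Python 3.11.15 and Biopython 1.88, and 32815 genes were matched to it by locus. The table gives loci without coordinates. The alternatives were pseudocounts of 0.1 and 0.5, no filter or a mean of 5 FPKM or more, scaling by median of ratios, quantile normalization, limma without the trend or with robust moderation, only the groups compared, a replicate block, and leaving out each library. Equal library totals, and scaling together with the block, were added after the values were seen. Figures were drawn with matplotlib 3.10.9.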

Additional observations from a re-analysis of the deposited data

How the results depend on the processing

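NHX3 kept its call averaged over media under all 19 alternatives, with log2 differences of 1.43 to 1.79 and limma adjusted p of 4.57e-05 to 0.00690. Averaged over media, 3 NHX members were called, and 6 with the replicate block and 6 with median-of-ratios scaling and the block together. Leaving out 1 library gave 1 to 4 called members, with 1 without replicate 2 of serk1-1 in either medium. Without NaCl the count of 1 became 2 under median-of-ratios scaling, 2 under quantile normalization, 6 with the replicate block and 4 with scaling and block, and ran from 0 to 1 with a library left out. With NaCl the count of 1 became 0 with only the groups compared, 4 with the replicate block and 4 with scaling and block, and ran from 0 to 2 with a library left out. Replicates share only a number here, since no label says that it marks a batch. The paired check found that differences between replicates correlated between groups over all genes (r = 0.397 to 0.720). The r was 0.720 between the media of Col-0 and 0.719 between those of serk1-1, against 0.397 to 0.451 between genotypes. The main fit takes the libraries as independent, so its p-values averaged over media make no allowance for these shared deviations. The 3 members added by the block were NHX5 (adjusted p = 0.0105), SOS1 (0.00768) and NHX2 (0.00702), and the same 3 were added with scaling and block (0.00151, 0.0403 and 0.0295). NHX5 was also called with a mean of at least 5 FPKM (0.0380), under median-of-ratios scaling (0.0441) and under quantile normalization (0.0286). SOS1 was also called with equal totals (0.0256), without the trend (0.0487) and without replicate 2 of NaCl-treated Col-0 (0.0487), and NHX2 without replicate 2 of control Col-0 (0.0480). NHX8 had no value under the mean filter. The NHX8 call was lost with no filter on low values (adjusted p = 0.0507). The averaged salt effect changed sign for NHX3 with equal totals (-0.022). With 1 library left out it ran from -0.034 to 0.035 for NHX3 and from -0.39 to 0.014 for NHX2, the latter without replicate 1 of control Col-0, and none of these was called. The place in the order of mean FPKM was kept by 8 of 8 members, or 6 without replicate 2 of serk1-1 in either medium. Over all genes, calls averaged over media ran from 1981 to 8681 around 4722, those without NaCl from 13 to 6153 around 1697, those with NaCl from 2 to 5869 around 962, and those for the averaged salt effect from 0 to 2265 around 42. The causes of these changes were not tested. The depth of the libraries is unknown, so no counting limit can be given.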

Other observations

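Other transporters of protons and monovalent cations were described with the same fit, in which 11.9% of all genes were called higher and 18.9% lower in serk1-1, averaged over media, and the counts of these short lists are not set apart from those shares. Of the 11 plasma membrane proton pump genes AHA1 to AHA11, whose gradient drives SOS1, 8 were tested and 0 were called in either direction, averaged over media. AHA1 was the most abundant, at 271 to 398 FPKM in Col-0 and 233 to 306 FPKM in serk1-1, with a log2 difference of -0.23 ± 0.18 (limma adjusted p = 0.359). AHA2, the main root isoform, was at 51.11 and 19.97 FPKM in control Col-0, 28.18 and 12.30 in NaCl-treated Col-0, 14.04 and 6.56 in control serk1-1 and 14.76 and 5.79 in NaCl-treated serk1-1 (-1.28 ± 0.45, adjusted p = 0.0644). AHA6 was at 0 in all 8 libraries.

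Of 14 other cation/proton antiporter genes, 8 were tested, and 0 were called higher and 1 lower in serk1-1. That gene was CHX18, of the CHX family of endomembrane exchangers, at 20.63 and 21.45 FPKM in control Col-0, 28.59 and 26.06 in NaCl-treated Col-0, 9.60 and 8.46 in control serk1-1 and 12.66 and 8.94 in NaCl-treated serk1-1. All 4 serk1-1 values were below all 4 Col-0 values, and the difference was -1.21 ± 0.16 (limma adjusted p = 0.00285). The plastid antiporter gene NHD1 was at 18.0 to 28.5 FPKM in Col-0 and 26.4 to 32.1 in serk1-1, which overlapped (0.36 ± 0.17, adjusted p = 0.150).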
